A study of Danio rerio with 5 samples.

Results

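The cytosolic ribosomal protein genes were examined in the upper digestive tract of adult zebrafish, taking every probe set whose single gene symbol begins with rpl or rps and a digit, or is rplp0 to rplp2 or rpsa with any suffix. The name rule found 84 probe sets of 79 genes among the 15502 probe sets of the array that are not controls. Of these, 77 probe sets of 73 genes were counted as those of cytosolic ribosomal proteins, 47 for the large subunit and 30 for the small subunit. The other 7 match by name only. They are 5 probe sets of ribosomal S6 kinases and 2 of rps19bp1, and are described apart. Like-named copies such as rpl7l1 were counted with a subunit by symbol alone, without a check that their products are part of the ribosome. Symbols of mitochondrial ribosomal proteins begin with mrp and do not match.

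The zCdx1b transgenic group has 3 pools and the wild-type group 2, each pool holding the tissue of 3 fish aged 3 months and read on 1 array. Both groups are on the AB background. The transgenic fish carry zebrafish Cdx1b with EGFP behind a zebrafish keratin 5 promoter fragment (zK5p), inserted with Tol2 transposase after injection of the eggs. The labels do not say whether the transgenic pools come from 1 founder line or where the dissected stretch ends. The values are the log2 expression values the authors deposited, and a change is the mean of the transgenic pools minus the mean of the wild-type pools.

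Each ribosome joins a large subunit, which makes the peptide bond and lets the growing chain out through a tunnel, to a small subunit, which reads the messenger RNA. Cells make the proteins of both subunits in matched amounts, and their mRNAs are among the most abundant in growing tissue. In vertebrates these mRNAs begin with a pyrimidine tract (TOP) through which the mTOR kinase and the protein Larp1 control their translation together. Most of these proteins have 1 gene each, while a few have related copies whose use differs between tissues.

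The 2 groups of pools differed widely in transcripts that serve as markers of several tissues. Of 18 intestinal absorptive marker probe sets tested, 18 rose, and of 18 exocrine pancreas marker probe sets tested, 18 rose. Of 23 hepatocyte marker probe sets, 22 rose. Of 30 squamous epithelium marker probe sets, 26 fell, while 7 of 29 striated muscle marker probe sets fell and 1 rose. Over all probe sets tested, 11.7% fell and 10.1% rose by the same test, described below. A background bound was set on each array at the highest value among 44 control probe sets for bacterial or tag sequences, and it lay between 3.64 and 4.13. In both wild-type pools, 12 of 19 exocrine pancreas and 11 of 18 intestinal absorptive probe sets were at or below it, and none of either list was so in all transgenic pools. Summed on a linear scale, the exocrine pancreas markers reached 72799 to 84841 in transgenic pools, against 273 to 343 in wild-type pools, and the squamous markers 9122 to 16328 against 50791 to 52923. All results below stand beside these shifts, and the part of tissue makeup in them was not tested.

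Most ribosomal protein transcripts were slightly lower in transgenic pools on the deposited scale. Of the 76 member probe sets tested, 33 fell, 1 rose and 42 did not pass the test, which was limma across all 10335 probe sets kept, at a Benjamini-Hochberg adjusted p of 0.05. That is 43.4% lower and 1.32% higher, against 11.7% lower and 10.1% higher over all probe sets tested. The median log2 change over the members was -0.27, beside -0.10 over all probe sets tested, and on a linear scale the members' median fell by 17.3%. The changes of the 33 ran from -0.20 to -0.55. In 67 of the 76 all 3 transgenic pools lay below both wild-type pools, which held for 30.8% of all probe sets tested, and in 2 of the 76 they lay above, against 20.1%.

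With each array centred on its median, 13 of 76 fell, against 9.92% of all probe sets, and after quantile normalization 45 of 76, against 15.1%. Without a filter 15 of 77 fell, against 6.85%, with a 60th percentile filter 38 of 76, against 15.3%, and with a robust trend 29 of 76, against 11.6%. With probe sets averaged per gene, 37 of 73 genes fell, against 12.3%.

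The fall is small beside the changes elsewhere on the array, and its call depends on how the spread was modelled and on the scaling of the arrays. Without a trend of the variance on the level, limma called 0 members lower, against 11% of all probe sets, with 9 lower at an unadjusted p under 0.05. With each array scaled to the same standard deviation, limma also called 0 lower, against 13.1%, with 0 at an unadjusted p under 0.05, although the median went further down, to -0.51. Centring each array instead on the median of 139 other bright probe sets, a setting chosen after the data were seen, adds 1 constant to each array. It moved the median of all probe sets by 0.67, to 0.57, and that of the members to 0.39, so that limma called 0 lower, against 3.75% of all probe sets, and 23 higher, against 28.6%. The members' median lay below that of all probe sets on both scales, with a difference of -0.17 on each. The sign of the members' change thus depends on where 0 is set. Their place below the median of all probe sets is the same on these 2 scales by construction, since the constants move every change alike. The 139 had a median change of -0.34 on the deposited scale. Adding 0.67 to every change therefore put their own median change above 0 as well. The members' 0.39 is thus not their distance from the other bright probe sets.

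**Figure D1:**
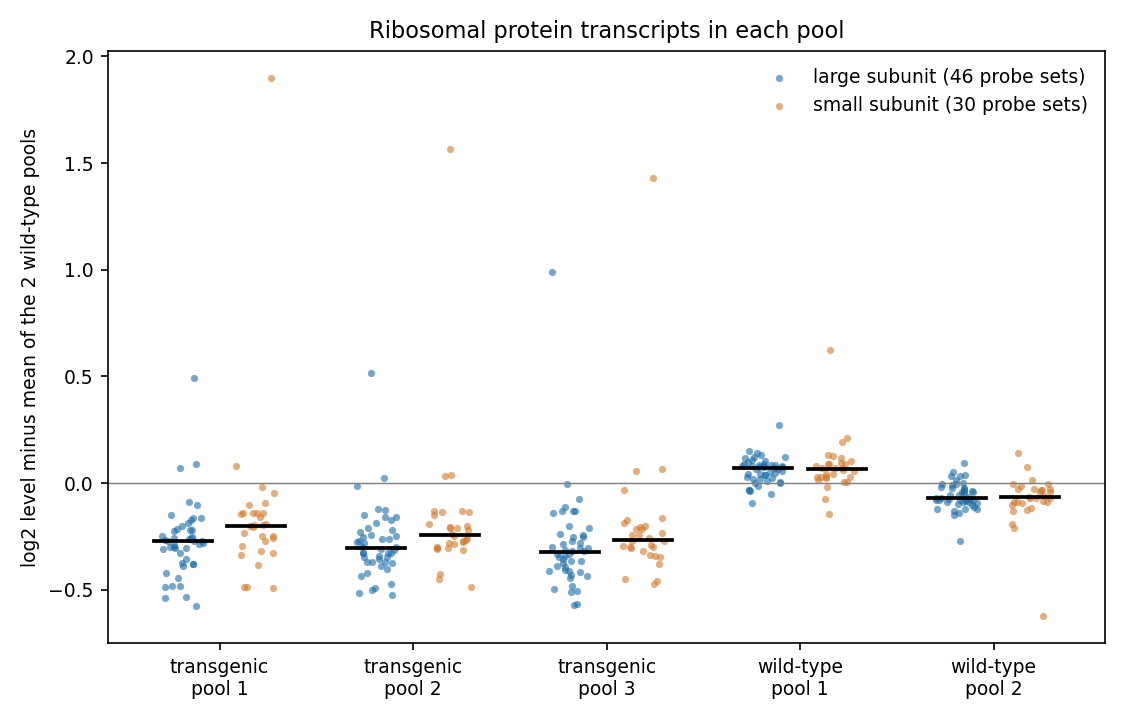
Each point is 1 of the 76 ribosomal protein probe sets tested, with its log2 level minus the mean of the 2 wild-type pools on the y axis and the 5 pools on the x axis, large subunit in blue and small subunit in orange, and black bars at the medians. On the deposited scale the medians lie between -0.20 and -0.33 in the transgenic pools, and above 0 when all probe sets are shifted by centring on other bright ones, and the points above 1.4 are rps27l.

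The transgenic pools lay close together, and the wild-type pools lay further apart. Set against the average of both wild-type pools, the members' median in the transgenic pools was -0.26, -0.27 and -0.30. The wild-type pools lay at 0.07 and -0.07, mirror images because their own mean was subtracted. A typical member varied with an SD of 0.04 over the transgenic pools and 0.10 over the wild-type pools, against 0.18 and 0.32 for the median probe set tested. In 67 of 76 members wild-type pool 1 was above wild-type pool 2, as it was for 63.8% of all probe sets.

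Both subunits had members that fell, and the median change was a little further below 0 for the large subunit on the deposited scale. Of 46 large subunit probe sets tested, 21 fell, none rose and 25 stayed short of the threshold, and the median change was -0.29. Of 30 small subunit probe sets, 12 fell, 1 rose and 17 stayed short of it, and the median was -0.24. The shares lower were 45.7% of the large and 40% of the small subunit, and 3.33% of the small subunit were higher. Over all probe sets tested the shares were 11.7% lower and 10.1% higher, with a median change of -0.10. Pool by pool, the large subunit median was -0.27, -0.31 and -0.33 in the transgenic pools, and the small subunit median was -0.20, -0.24 and -0.26. Relative to the wild-type mean, the large subunit was thus below the small by 0.07, 0.06 and 0.06 in transgenic pools 1, 2 and 3. This is a description with no test. In either wild-type pool the 2 medians were within 0.003 of each other. Those wild-type values mirror each other around 0 because their own mean was subtracted, so they are no separate baseline. The fitted medians differed by -0.050, large minus small, and by -0.097 with wild-type pool 2 dropped. The changes of single members had a middle 50% from -0.38 to -0.24 in the large and from -0.30 to -0.16 in the small subunit.

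**Figure D2:**
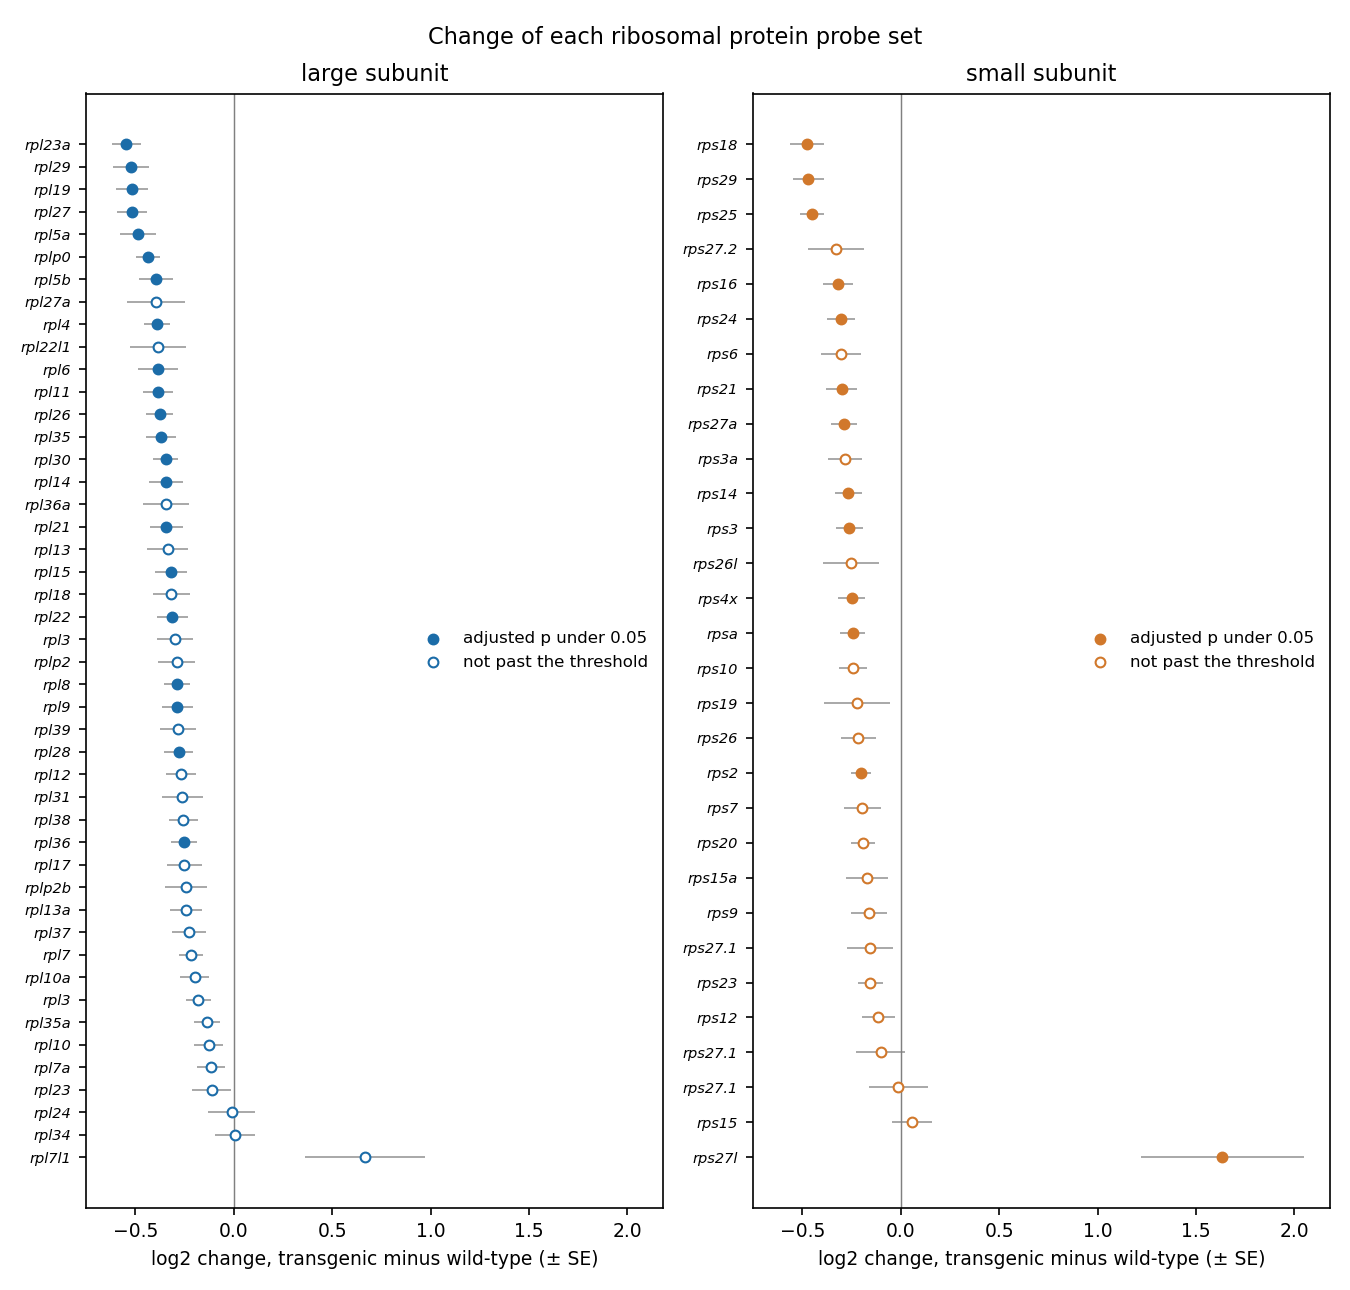
Log2 change of each of the 76 probe sets tested (transgenic minus wild-type, x axis, with limma standard errors), ordered within the large (left) and small (right) subunit, filled where the adjusted p is under 0.05. Most lie between -0.55 and 0.06 on the deposited scale (above 0 when all probe sets are shifted by centring on other bright ones), and rpl7l1 and rps27l stand apart to the right.

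The 5 largest falls were all of large subunit genes. The tunnel exit protein gene rpl23a, whose product receives factors that bind the emerging chain, read 11.56, 11.57 and 11.53 in transgenic pools, against 12.06 and 12.13 in wild-type pools. It fell by 0.55 on the log2 scale (SE 0.07, limma adjusted p = 0.00491). On a linear scale it fell by 31.5%. Another protein at the exit, rpl19, read 11.62, 11.72 and 11.69 in transgenic pools, against 12.27 and 12.12 in wild-type pools, and fell by 0.52 (SE 0.08, limma adjusted p = 0.00883). The groups do not overlap for either gene, and the gap between them exceeds the range within each. The large subunit genes rpl29 and rpl27 each fell by 0.52, with limma adjusted p-values of 0.0126 and 0.00703.

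Of the 8 tunnel exit proteins measured, 5 fell and none rose, with changes from -0.55 to -0.25. Besides rpl23a and rpl19 these were rpl26 (-0.38), rpl35 (-0.37) and rpl22 (-0.31). The others, rpl39, rpl31 and rpl17, had changes of -0.28, -0.26 and -0.25 without passing. The grouping by place on the ribosome, here and for the next sets, was made after the values were seen. The counts in these small sets stand beside 43.4% of all members and 11.7% of all probe sets called lower. Whether any place differs from the other members was not tested. The protein rpl4, which lines the tunnel, had 11.92, 11.92 and 11.89 in transgenic pools, against 12.34 and 12.26 in wild-type pools, a fall by 0.39 (SE 0.07, limma adjusted p = 0.0112). The large subunit gene rpl6 fell by 0.38 with limma adjusted p = 0.045.

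All 3 genes for the proteins that enter the ribosome bound to the 5S RNA fell. Free Rpl5 and Rpl11 are known in mammals to bind Mdm2 and so to stabilise p53. The gene rpl5a read 11.11, 11.11 and 11.12 in transgenic pools, against 11.67 and 11.53 in wild-type pools, and fell by 0.49 (SE 0.09, limma adjusted p = 0.0146). Its copy rpl5b read 11.38, 11.38 and 11.31 in transgenic pools, against 11.81 and 11.70 in wild-type pools, and fell by 0.40. Both copies thus separated the groups in the same way. The gene rpl11 read 11.87, 11.89 and 11.86 in transgenic pools, against 12.34 and 12.17 in wild-type pools, a fall by 0.38 (limma adjusted p = 0.0177).

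Of 4 stalk probe sets, which stand for the flexible arm that recruits elongation factors, 1 fell. The stalk base gene rplp0, often used as a reference gene, read 12.14, 12.19 and 12.23 in transgenic pools, against 12.58 and 12.66 in wild-type pools. It fell by 0.44 (SE 0.06, limma adjusted p = 0.00622), more than the range within either group. The arm genes rplp2 and rplp2b had changes of -0.29 and -0.24 without passing, and rpl12 at the base had -0.27 (limma adjusted p = 0.0544). No probe set bore the name rplp1.

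In the head of the small subunit, 6 of 11 genes fell and none rose, with changes from -0.48 to 0.06. The gene rps18 read 11.38, 11.39 and 11.41 in transgenic pools, against 11.95 and 11.79 in wild-type pools, and fell by 0.48 (SE 0.09, limma adjusted p = 0.0134). The gene rps25, which in human cells and yeast is needed for translation from certain internal ribosome entry sites, read 11.93, 11.99 and 11.97 in transgenic pools, against 12.42 and 12.41 in wild-type pools. It fell by 0.45 (SE 0.06, limma adjusted p = 0.00524). The zinc-binding protein gene rps29 fell by 0.47 (limma adjusted p = 0.0107). The other falls were rps16, rps27a, which encodes a fusion with ubiquitin, and rps3 at the mRNA entry, at -0.32, -0.29 and -0.26. The remaining 5 were rps10 (-0.24), rps19 (-0.22), rps20 (-0.19), rps12 (-0.11) and rps15 (0.06).

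Among the other large subunit proteins, 12 of 31 probe sets fell and none rose, and among the other small subunit proteins, 6 of 19 fell and 1 rose. The gene rpl30, whose protein in yeast represses the splicing of its own transcript, averaged 12.03 ± 0.03 in transgenic pools (SD, n = 3), against 12.37 ± 0.04 in wild-type pools (SD, n = 2), and fell by 0.35 (SE 0.06, limma adjusted p = 0.0130). The gene rpl15 read 11.96, 11.91 and 11.95 in transgenic pools, against 12.35 and 12.16 in wild-type pools, and fell by 0.32 (SE 0.08, limma adjusted p = 0.0376). Loss of RPL15, like that of RPS24, is a known cause of Diamond-Blackfan anaemia in humans. The gene rps24 averaged 12.02 ± 0.02 in transgenic pools (SD, n = 3), against 12.32 ± 0.10 in wild-type pools (SD, n = 2), and fell by 0.30 (SE 0.07, limma adjusted p = 0.0293). The gene rps14, whose loss in humans underlies the anaemia of the 5q- syndrome, read 12.24, 12.30 and 12.37 in transgenic pools, against 12.61 and 12.52 in wild-type pools, and fell by 0.27 (SE 0.07, limma adjusted p = 0.0371). The groups do not overlap for any of these 4 genes. The other falls of the large subunit were rpl14 (-0.34), rpl21 (-0.34), rpl8 (-0.29), rpl9 (-0.29), rpl28 (-0.28) and rpl36 (-0.25), besides rpl29, rpl27, rpl4 and rpl6 described above. Those of the small subunit were rps21 (-0.30) and rps4x (-0.25), besides rpsa (-0.24) and rps2 (-0.20) described below.

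Some members with changes of this size did not pass, with larger standard errors. The gene rpl27a had -0.40 with an SE of 0.15, reading 10.12, 9.97 and 9.90 in transgenic pools, against 10.30 and 10.49 in wild-type pools. The gene rpl36a had -0.34 with an SE of 0.12. Their groups do not overlap. At the other end, rpl10, needed for subunit joining, and rpl7a had -0.13 and -0.12 with SEs of 0.07 each, and rps23, in the decoding centre, had -0.15 with an SE of 0.06.

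Some members lay close to 0 change. The gene rps15 read 11.56, 11.52 and 11.54 in transgenic pools, against 11.61 and 11.35 in wild-type pools, so the groups overlap, at a change of 0.06 (SE 0.10). The large subunit genes rpl24 and rpl34 had changes of -0.01 (SE 0.12) and 0.01 (SE 0.10) with overlapping groups. Of the 7 member probe sets whose groups overlap, the others are those of rpl23, rps19 and 2 of the 3 of rps27.1. At rps2, which also lies at the mRNA entry, the smallest fall that passed was -0.20, with 12.43, 12.42 and 12.45 in transgenic pools, against 12.64 and 12.63 in wild-type pools. The S6 kinase target rps6 had a change of -0.30 (SE 0.10, limma adjusted p = 0.0898), and rpsa, also known as the laminin receptor, fell by 0.24 (limma adjusted p = 0.0397).

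Of the 33 members that fell, 5 passed whichever of the 5 pools was dropped, namely rpl23a, rpl19, rpl27, rps25 and rplp0. Their highest limma adjusted p among these fits was 0.0499, for rpl27, and each of the other 28 lost its call at least once. Without transgenic pool 2 these 5 were the ones called, while 14 of the 33 remained without transgenic pool 1, 12 without transgenic pool 3, 16 on dropping wild-type pool 1 and 31 on dropping wild-type pool 2. Over all probe sets tested the share called lower without transgenic pools 1, 2 and 3 was 8.64%, 3.61% and 8.46%, and the share called higher 10%, 6.39% and 9.36%. On dropping wild-type pool 1 these shares were 6.01% lower and 11.8% higher, and on dropping wild-type pool 2, with 48 members lower in all, 14.9% and 9.24%. The highest limma adjusted p over the pools left out was 0.0705 for rpl29, 0.101 for rpl5a, 0.129 for rpl5b, 0.0752 for rpl4, 0.0932 for rpl11, 0.0856 for rps18 and 0.0642 for rps29. It was 0.217 for rpsa and 0.248 for rps2.

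**Figure D3:**
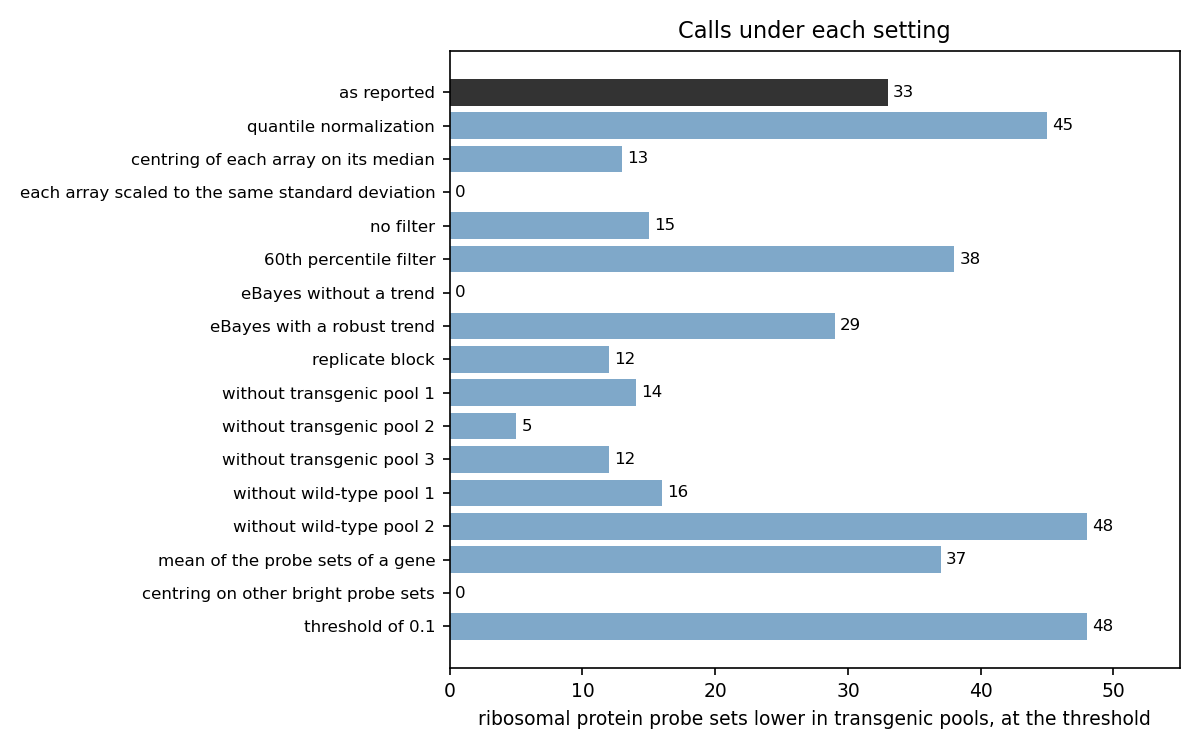
Number of the ribosomal protein probe sets that limma called lower in transgenic pools (x axis, adjusted p under 0.05, or under 0.1 in the bottom row) under each setting (y axis), with the reported count of 33 at the top. Counts run from 0 to 48, and the 3 settings at 0 are equal standard deviations, no variance trend and centring on other bright probe sets, which shifts all probe sets upward and the members to above 0.

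Apart from the dim probe set of rpl21, rpl7l1 and rps27l, the ribosomal proteins sat at the top of every array. These 74 probe sets read between 9.83 and 12.66 and lay at or above the 97.9th percentile of each array. Controls aside, the highest value of any probe set was 13.58 on the transgenic and 13.23 on the wild-type arrays. More probe sets outshone the brightest member on transgenic arrays, 25 to 30, than on wild-type arrays, 14 to 15. Across the 74 members, the change had a Pearson r of -0.14 and a Spearman rho of -0.13 with the wild-type level, a description over probe sets that share the same 5 arrays.

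Other bright probe sets were lower too. Of 139 probe sets outside the members with a mean level of at least 10, 47 fell (33.8%) and 16 rose (11.5%). Their median change was -0.34. Of the 74 bright members, 33 fell (44.6%). The 139, also used for the centring, were set apart from the members by name only. They include the ribosomal protein gene faua, described below, and probe sets without a symbol, which may hold further ribosomal proteins. For 92 of the 139 all transgenic pools lay below all wild-type pools, 66.2% against 88.2% of all 76 members tested, dimmer ones included. The changes of the 139 spread more, with the middle 50% from -1.21 to -0.03, against -0.34 to -0.20 for all 76 members. Pool by pool the median of these probe sets was -0.32, -0.33 and -0.37 in transgenic pools 1, 2 and 3, close to the members' -0.26, -0.27 and -0.30.

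**Figure D4:**
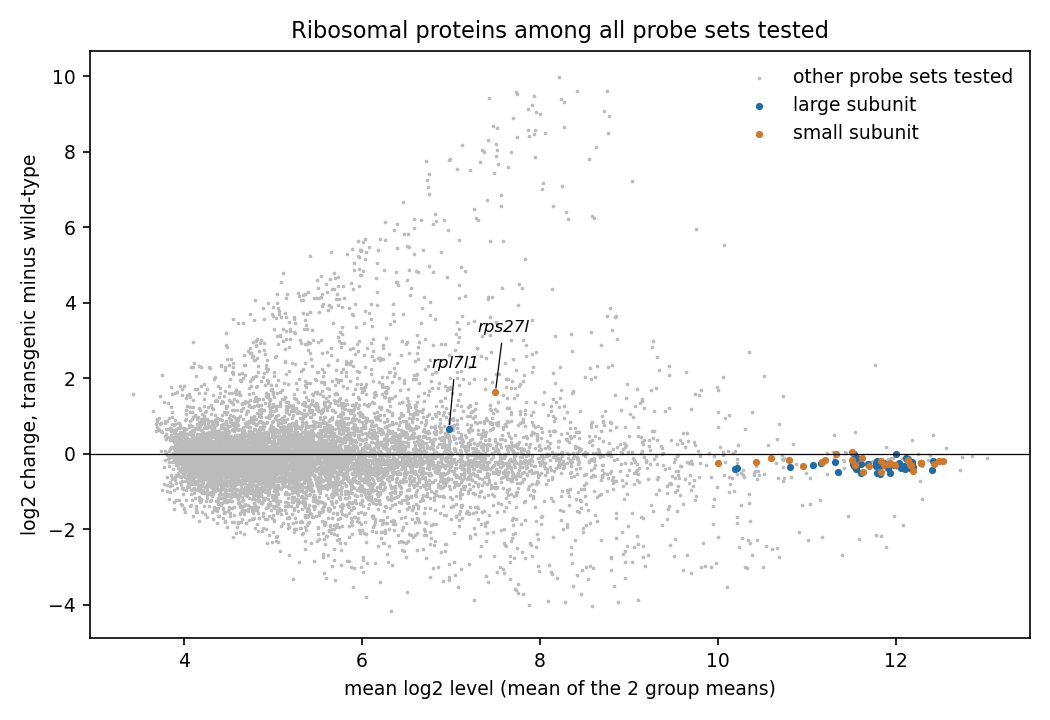
Log2 change (transgenic minus wild-type, y axis) against mean log2 level (x axis) for all 10335 probe sets tested, with large subunit members in blue, small subunit members in orange and other probe sets in grey. The members form a tight cluster at levels of about 10 to 12.5, mostly just under 0 on the deposited scale (above 0 when all probe sets are shifted by centring on other bright ones), except rpl7l1 and rps27l at lower levels.

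The copy rps27l was the member that rose. In humans RPS27L is induced by p53. It read 8.58, 8.25 and 8.12 in transgenic pools, against 7.31 and 6.06 in wild-type pools, without overlap. It rose by 1.63 (SE 0.41, limma adjusted p = 0.0383), or 3.10-fold. The wild-type pools differed from each other by 1.25. The limma adjusted p was 0.0632, 0.110 and 0.0652 without transgenic pools 1, 2 and 3, while dropping wild-type pool 1 gave 0.0178 and dropping wild-type pool 2 gave 0.0576. The change itself reached 2.26 with wild-type pool 1 dropped, and 1.01 with pool 2 of that group dropped.

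The other S27 genes had no call. The gene rps27.2 had 10.75, 10.82 and 10.82 in transgenic pools, against 11.32 and 10.93 in wild-type pools, a change of -0.33 (SE 0.14, limma adjusted p = 0.158). The 3 probe sets of rps27.1 had changes of -0.16, -0.10 and -0.01, with limma adjusted p-values from 0.419 to 0.969. Whether rps27l differs in its change from these copies was not tested.

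The protein S30 is made from the fau genes, which encode it fused to a ubiquitin-like protein and escape the name rule. The copy faua read 11.65, 11.67 and 11.61 in transgenic pools, against 11.92 and 11.75 in wild-type pools, a change of -0.19 (SE 0.09, limma adjusted p = 0.168). The copy faub, looked up after the member values were seen, read 8.89, 8.57 and 8.49 in transgenic pools, against 6.39 and 4.69 in wild-type pools. It rose by 3.11 (SE 0.51, limma adjusted p = 0.0101), or 8.61-fold, and the groups are further apart than the wild-type pools are from each other. It kept its call whichever pool was dropped, at changes between 2.25 (wild-type pool 2 dropped) and 3.96 (wild-type pool 1 dropped). Another ribosomal protein outside the rule, rack1, a scaffold on the small subunit head, had a change of -0.24 (SE 0.07, limma adjusted p = 0.0516).

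The other related copies differed less from each other in their changes, with no test of the difference. The gene rpl7l1 read 7.14, 7.16 and 7.64 in transgenic pools, against 6.92 and 6.38 in wild-type pools, without overlap. It had a change of 0.67 (SE 0.31) with limma adjusted p = 0.184. Its relative rpl7 had -0.22 (SE 0.06, limma adjusted p = 0.0532). Zebrafish Rpl22 and Rpl22l1 are known for opposing roles in blood stem cells and T cells. Here rpl22 read 11.41, 11.39 and 11.34 in transgenic pools, against 11.69 and 11.69 in wild-type pools, and fell by 0.31 (limma adjusted p = 0.0392) and rpl22l1 had -0.39 without passing (limma adjusted p = 0.109). The genes rps26 and rps26l had changes of -0.22 and -0.25, neither past the test.

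**Figure D5:**
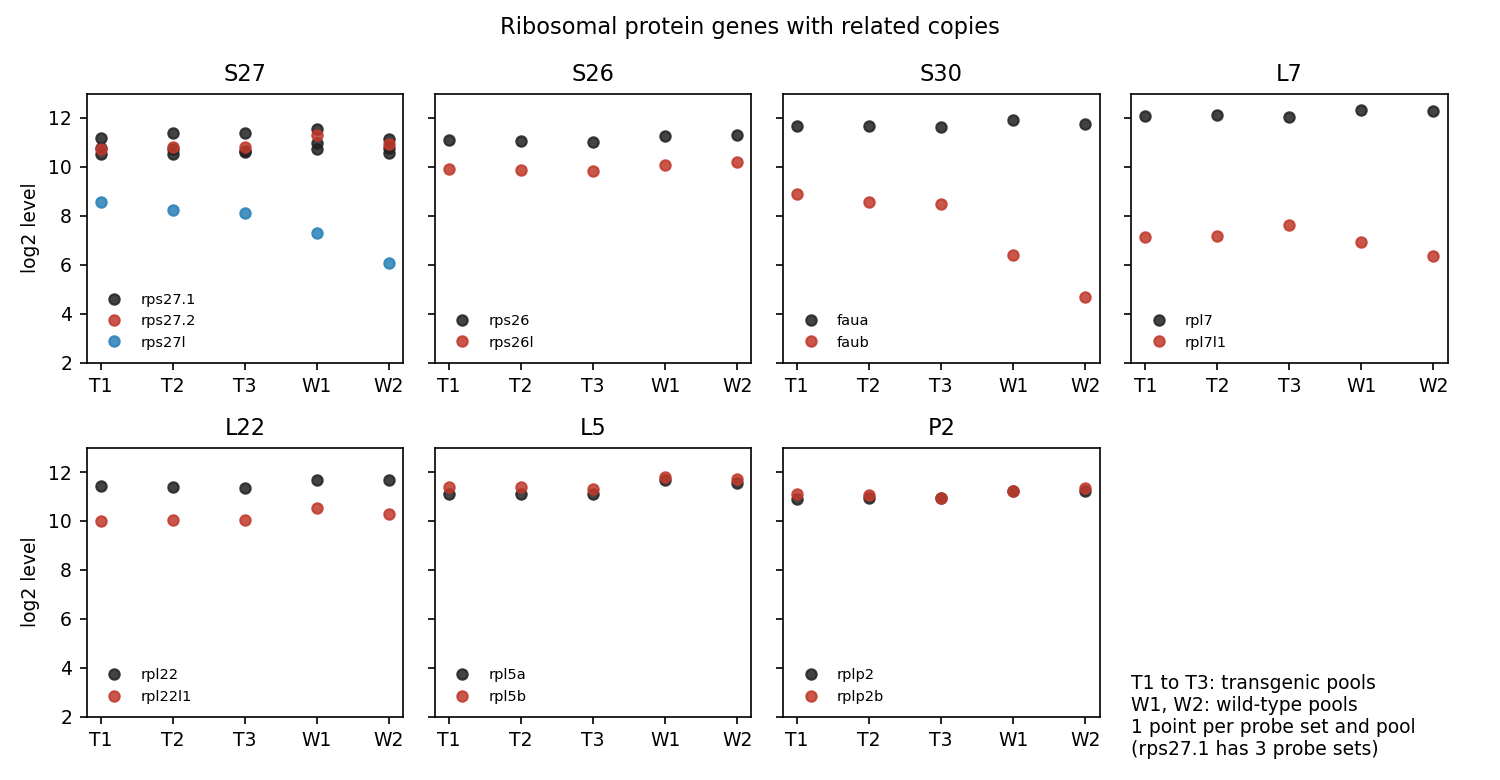
Log2 level (y axis) in the 3 transgenic (T1 to T3) and 2 wild-type pools (W1, W2) for ribosomal protein genes with related copies, 1 point per probe set and pool, with levels of different probe sets not comparable in amount. The copies rps27l and faub, and rpl7l1 without passing the test, are higher in all transgenic pools than in both wild-type pools. The other genes shown are lower in all transgenic pools on the deposited scale, except for some probe sets of rps27.1. They lie above the wild-type pools on average when all probe sets are shifted by centring on other bright ones.

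A few genes had several probe sets. The probe sets of rpl3 had changes of -0.30 and -0.18, neither past the test. The gene rpl21 fell by 0.34 on its bright probe set (limma adjusted p = 0.0375). Its other probe set, of the A1 kind, read 3.69, 3.60 and 3.35 in transgenic pools, against 3.36 and 4.07 in wild-type pools, under the background bound, and was not kept for the test.

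The name-only matches showed no call. The S6 kinase gene rps6kb1b, whose product phosphorylates Rps6 under mTOR, read 6.06, 5.74 and 5.54 in transgenic pools, against 5.30 and 5.15 in wild-type pools, a change of 0.55 (SE 0.24, limma adjusted p = 0.162). Of the kinases of the other class, rps6kal had -0.36, rps6ka3a 0.10 and rps6ka1 0.04, none past the test, and rps6ka4 was too dim to be kept. The 2 probe sets of rps19bp1 had changes of 0.09 and 0.39. Of 24 probe sets of the mTOR and translation control list, 1 rose and 2 fell, beside 10.1% higher and 11.7% lower over all probe sets tested. The rise was eif4ebp3l (0.84), a relative of the eIF4E binding proteins, and both falls were probe sets of the growth regulator mycn (-1.04 and -0.96). The call of eif4ebp3l was lost with a pool left out, at a limma adjusted p of up to 0.219, and those of mycn at up to 0.120.

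Few genes that build ribosomes passed the test, which called 11.7% lower and 10.1% higher over all probe sets tested. Of 99 probe sets of ribosome biogenesis and nucleolar genes, 0 rose and 1 fell by limma, with 8 higher and 3 lower at an unadjusted p under 0.05, and a median change of 0.06. The fall was nob1, the endonuclease that finishes the small subunit RNA, at -1.20, with a limma adjusted p of 0.0142 and of up to 0.0882 with a pool left out. Of 66 mitochondrial ribosomal protein probe sets, 2 rose and 0 fell by limma, with 3 higher and 0 lower at an unadjusted p under 0.05, and a median of 0.21. The rises were mrpl38, with a change of 1.37, and mrps6, which read 5.48, 5.46 and 5.61 in transgenic pools, against 4.74 and 4.10 in wild-type pools. They had limma adjusted p-values of 0.0353 and 0.0256, and of up to 0.114 and 0.0937 with a pool left out. Whether these medians differ from that of the cytosolic ribosomal proteins was not tested, and these probe sets read lower on the arrays.

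Some mRNAs of a list that includes the TOP class fell, as did some of the other bright probe sets. Of 27 probe sets of elongation factor and other TOP mRNA genes, 0 rose and 7 fell (25.9%) by limma. That stands beside 11.7% lower over all probe sets tested and 33.8% among the 139 other bright ones. At an unadjusted p under 0.05 by limma, 0 were higher and 13 lower. The median was -0.34, as it was for the other bright probe sets. Bright genes of this list were not taken out of the 139, so these groups share probe sets and are no separate comparison. The largest falls were of eef2l2 (-2.42 and -1.29 on 2 probe sets), a relative of elongation factor eEF2, of the poly(A) binding protein gene pabpc1b (-1.79) and of eef1a1a (-1.18). The bright gene naca, whose product binds nascent chains at the tunnel exit, fell by 0.54. With a pool left out, the limma adjusted p reached 0.0915 for the first eef2l2 probe set, 0.0477 for pabpc1b, 0.0932 for eef1a1a and 0.108 for naca.

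RNA quality controls and markers of other cells were read beside these results. The control probe sets of gapdh gave a log2 difference of the 3' over the 5' end of 0.63, 0.86 and 0.98 in transgenic pools, against 1.01 and 1.02 in wild-type pools. The same difference for the control probe sets of the muscle actin gene acta1 was 5.21, 7.17 and 7.60 in transgenic pools, against 9.09 and 9.31 in wild-type pools. It was thus lower in every transgenic pool, as was the sum of the striated muscle markers, at 3077 to 25447 in transgenic pools, against 49159 to 50823 in wild-type pools. The array of wild-type pool 2 had a highest value of 13.26. An acta1 difference of 9.31 there puts the 5' end under that array's background bound of 4.13. In that pool the difference cannot be read as RNA quality apart from the acta1 level. The next counts stand beside 11.7% lower and 10.1% higher by limma over all probe sets tested. Of 10 leukocyte probe sets tested, 0 rose and 4 fell by limma, with 0 higher and 5 lower at an unadjusted p under 0.05. Their sum ran from 2128 to 3403 in transgenic pools, against 6086 to 7806 in wild-type pools. Of 15 oocyte probe sets, limma called 0, also with 0 at an unadjusted p under 0.05, but their sum ran from 293 to 5470 in transgenic pools, against 875 to 903 in wild-type pools. In whole tissue, fewer cells of a type and less RNA per cell cannot be told apart, and the part of these measures in the ribosomal protein changes was not tested.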

How the data were processed

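RNA of 5 pools was measured on 1 array each. The table holds log2 values deposited by the authors, 1 per probe set and array, and MAS5 is named per the submitters' processing notes. The log2 scale was read from the values, which ran from 2.23 to 13.58. Each array averaged 4.89, so the arrays had been scaled, while their SD ran from 1.58 to 1.79. Symbols came from GEO's platform annotation. A RefSeq table of assembly GRCz12tu changed none of the symbols of the 84 probe sets that the name rule found. A gene absent from that table would have kept its platform symbol. A single symbol was given for 10795 probe sets, several for 135 and none for 4572, and 115 controls were left out of tests.

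A probe set was kept where it reached its array's 40th percentile on 2 or more arrays, which left 10335. Groups were compared with limma 3.58.1 in R 4.3.3 (lmFit, eBayes with a trend), two-sided, adjusted by Benjamini-Hochberg. No count model was used. The procedure was tested on simulated data. The number of arrays limits the precision.

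The genes named were the 12 largest falls and the rises, stalk genes, rpsa, rps6, related copies, genes with several probe sets, and the largest calls of each list. Other members named were chosen after their values were seen. Members and lists were chosen with earlier results of these data known. The grouping by place on the ribosome, the background bound, the centring on bright probe sets and the look at faub came after the data were seen. No sequence is shown.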

Additional observations from a re-analysis of the deposited data

How the results depend on the processing

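Of the 33 falls, limma kept 28 after quantile normalization (45 lower in all), 33 with a 60th percentile filter (38) and 29 with a robust trend. The count lower was 13 with arrays centred on their median, 15 without a filter, 0 with equal standard deviations, without a trend and with centring on other bright probe sets, and 5 to 48 with a pool left out. With the replicate number as a block it was 12, where 9.02% of all probe sets were called lower. Same-numbered pools gave correlations of their deviations from the group means of -0.25 and -0.13. The wild-type deviations mirror each other, so these values are no separate checks and cannot decide whether pools are paired. The labels name no batch, and the replicate numbers were not taken to pair the pools. The count higher was 0 to 1 with a pool left out, and 23 when arrays were centred on bright probe sets. The large subunit median was -0.23 with median centring, -0.53 with equal standard deviations, 0.38 with bright centring and -0.36 to -0.24 with a pool left out. The small subunit median was -0.18, -0.47 and 0.43 under the first 3 and -0.26 to -0.19 with a pool left out. Large minus small was -0.064 after quantile normalization, -0.068 with the block, -0.041 over gene means and -0.097 to -0.047 with a pool left out. It kept its sign, though not its size, in all settings run. Centring of the arrays and the choice of trend could not change it, so its sign there was fixed in advance. The cause of the moves between settings was not tested. Changes near 0 turned sign. One rps27.1 probe set was at 0.046 with median centring and, with a pool left out, ran from -0.22 to 0.20, with 0.053 where transgenic pool 1 was dropped. The gene rpl24 was at 0.047 with median centring, 0.039 with the block, and 0.039 and 0.14 with transgenic pool 3 or wild-type pool 1 dropped. The genes rpl34 and rps15 were at -0.23 and -0.16 with equal standard deviations and at -0.13 and -0.073 without wild-type pool 2, rps15 at up to 0.19 without wild-type pool 1, and rpl34 at -0.03 and -0.003 without transgenic pools 1 and 2. Without wild-type pool 2, rps19bp1 and rps6ka1 were at -0.21 and -0.082, and rps6ka1 was at -0.007 without transgenic pool 2, its highest value with a pool left out being 0.15. With 1 wild-type pool left, that pool is assumed to vary like the others. Member signal lay well above the background bound on every array, except for the dim rpl21 probe set.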
